A study of Mus musculus with 4 samples.

Results

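Mouse chromosome 7 carries the H19 imprinting control region (ICR) and, far from it, 3 other large tiled regions that are described here. They were chosen by name and not by any measured value: every tiled region of chromosome 7 spanning more than 100 kb, except the most distal one. The proximal region ran from 5455293 to 6633345 (8741 probes), the middle region from 52536661 to 56638685 (31900 probes) and the outer region from 122260051 to 123145897 (8409 probes), all on chromosome 7 in mouse build mm6. Together they held 49050 of the 388160 tiling probes and were 3 of the 123 named regions of the array. The most distal region of the chromosome, with 26974 probes, and 22 large regions of other chromosomes, with 267996 probes, served for comparison.

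In 4C (circular chromosome conformation capture), fragments that lay near a chosen locus, the bait, are ligated to it and amplified. The bait was the H19 ICR. Its 4C product carried Cy5, and genomic DNA of the same cells cut with MboI, the input, carried Cy3. ES is the undifferentiated mouse embryonic stem cell line R1. EB stands for embryoid bodies, aggregates grown from ES cells in culture and taken after 12 days of differentiation. Each state had 2 arrays, and 3 samples were pooled for each replicate. Neither group carried a labelled genetic change or drug. ES is 1 cell line, and an embryoid body mixes many differentiating cell types, so that a level in EB is an average over them. No expression was measured, and the labelled cell states could not be checked against marker genes.

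The H19 ICR is methylated on the paternal chromosome and bound by the insulator protein CTCF on the maternal one, which keeps Igf2 and H19 expressed from opposite parental chromosomes. On mouse chromosome 7 further imprinted clusters lie outside the H19 and Igf2 neighbourhood, among them that of Peg3 towards the centromere and that of Snrpn and Ube3a in the middle of the chromosome. Contacts of a bait in 4C fall off steeply with distance along the chromosome, and contacts with far or other chromosomes are rarer. An annotation of build mm6 was not used here, so the regions are given by position and no gene, exon or intron is assigned to them.

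The regions lay 129.9, 79.8 and 13.3 Mb from the near edge of the distal region. They spanned 1178, 4102 and 885.8 kb, and neighbouring probes started 52 bp apart (median) in each, with 7.42, 7.78 and 9.49 probes per kb. Stretches without probes of over 10 kb numbered 5 in the proximal, 22 in the middle and 2 in the outer region, and the longest was 50.1 kb. The 3 regions thus differ in coverage, and the middle one holds most of the probes.

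Across the whole array, the 4C channel was near its background for most probes. Random control probes had median 4C intensities of 963 and 1481 on the first and second ES array and 534 and 1607 on the first and second EB array, and all tiling probes had medians of 969, 1521, 543 and 1638. The replicate number is also the scan batch: the arrays of replicate 1 shared a scan day, those of replicate 2 another, and each day held 1 array per state. Only 4 arrays limit the precision of every value. The 2 arrays of a state differ in pool and in scan batch, and p-values of fits without a replicate block measure both spreads together.

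In all 3 regions the 4C signal was close to that of the random controls in both states. In the proximal region the median intensity was 974 and 1524 on the ES arrays and, on the EB arrays, 547 and 1642. In the middle region the medians were 958 and 1473 in ES and, in EB, 536 and 1590. In the outer region they were 969 and 1530 in ES and, in EB, 544 and 1652. Against the control median of the same array, the region medians differed by -1.04% to 3.32%. The raw intensities differed more between replicates of a state than between the states.

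On the log2 scale, with each array's tiling median set to 0, the 4C signal (mean over the 10 kb windows of a region) differed between ES and EB by less than the spread between replicates. The proximal region had 0.010 and -0.0015 in ES and, in EB, 0.012 and 0.0052. Its EB minus ES difference was 0.0044 (95% confidence interval -0.030 to 0.039, limma adjusted p = 0.999). The middle region had -0.016 and -0.043 in ES and, in EB, -0.016 and -0.041, with a difference of 0.00076 (-0.045 to 0.046, limma adjusted p = 0.999). Both replicate 1 arrays were at the higher of these values and both replicate 2 arrays at the lower, so that the arrays of this region sorted by replicate and not by state. The outer region had 0.0001 and 0.0096 in ES and, in EB, 0.0061 and 0.014, with a difference of 0.0051 (-0.029 to 0.039, limma adjusted p = 0.999). ES and EB arrays overlapped in each of the 3 regions. Within the replicate 1 and the replicate 2 batch, EB minus ES was 0.0022 and 0.0067 in the proximal, -0.00066 and 0.0022 in the middle and 0.0060 and 0.0042 in the outer region, the same sign in both batches for the proximal and outer regions. With the replicate as a block in the limma fit, none of the 3 passed. Of the 123 regions tested, 0 passed in either direction, and percent_called was thus 0.0; at an unadjusted p under 0.05, 0 were higher and 1 lower in EB. In the distal region the same summary was 0.106 and 0.201 in ES and, in EB, 0.033 and 0.073, a difference of -0.100 (limma adjusted p = 0.999).

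**Figure D1:**
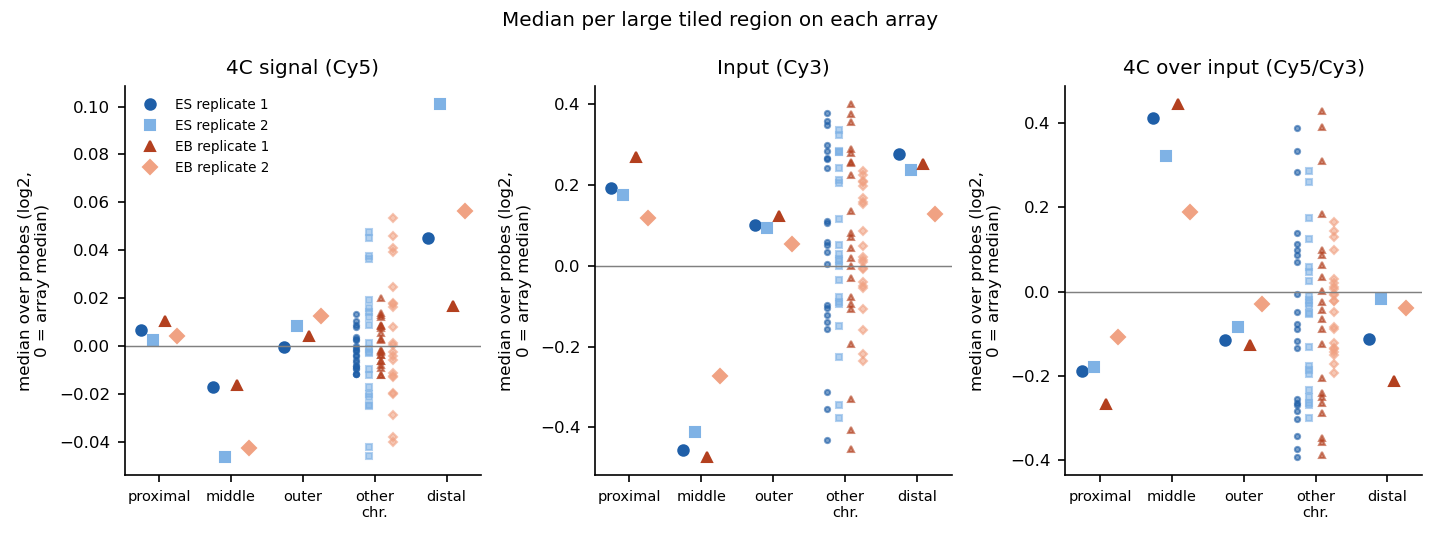
Median over probes of 4C signal (Cy5), input (Cy3) and 4C over input for each large tiled region on each of the 4 arrays, on the log2 scale with the array's tiling median at 0; small points are the 22 large regions of other chromosomes. The 4C panel spans a far narrower range than the other panels: the middle region lies at -0.017 to -0.046 in 4C signal but at -0.27 to -0.47 in input.

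The middle region differed from both others by more than their EB minus ES differences. On every array the middle region had the lowest 4C signal of the 3. It was lower than the proximal region by 0.026 and 0.041 on the ES arrays, and on the EB arrays by 0.029 and 0.046. The mean difference was -0.035 ± 0.0098 (SD, n = 4; exact sign-flip permutation test, two-sided, p = 0.125, adjusted 0.15). Against the outer region the mean difference was -0.036 ± 0.020 (SD, n = 4; exact p = 0.125, adjusted 0.15). The outer and proximal regions differed by 0.00096 ± 0.011 (SD, n = 4; exact p = 0.875). An exact test over 4 arrays cannot go below p = 0.125, and the adjustment covers 6 comparisons, 3 pairs of regions in 2 measures.

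In 4C signal over input the middle region was the highest of the 3. The log2 ratio of the middle region was 0.326 and 0.259 in ES and, in EB, 0.359 and 0.133, above 0 on every array. That of the proximal region was -0.258 and -0.267 in ES and, in EB, -0.370 and -0.172, below 0 on every array. The outer region lay between them, at -0.130 and -0.082 in ES and, in EB, -0.146 and -0.037. The middle region exceeded the proximal one by 0.536 ± 0.176 and the outer one by 0.368 ± 0.149, and the outer exceeded the proximal by 0.168 ± 0.045 (SD, n = 4; each higher on 4 of 4 arrays; exact p = 0.125, adjusted 0.15).

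The input channel moved opposite to these ratios and differed more between the regions than the 4C channel did. The middle region had an input of -0.364 and -0.337 in ES and, in EB, -0.378 and -0.212, the lowest of the 3 regions on each array. The proximal region had 0.248 and 0.248 in ES and, in EB, 0.371 and 0.179, and the outer region 0.110, 0.080, 0.142 and 0.059. The middle region was thus lower than the proximal one by 0.584 ± 0.148 in input and by 0.035 in 4C signal. Loess normalization removes the dependence of the ratio on the mean brightness of both channels. The 4C channel varied little here, so that brightness followed the input. Loess thus takes out most ratio differences that go with the input, whatever their origin, which was not tested. After it, the middle ratio exceeded the proximal one by 0.019 and fell below the outer one by 0.0080. The outer ratio exceeded the proximal one by 0.027. Over the 586 windows of the regions, log ratio and input correlated with Pearson's r of -0.990, -0.987, -0.994 and -0.975 (ES 1, ES 2, EB 1, EB 2). The input is the denominator of the ratio, so that the measures share it, and windows are not replicates. Among the 25 large regions other than the distal one, the correlation was -0.999, -0.997, -0.9997 and -0.989 on the same arrays.

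Set beside the 22 large regions of other chromosomes, the middle region was at the edge in each measure. None of the 22 had a lower input median, a lower median 4C signal or a higher median ratio on any of the 4 arrays. The highest median ratios among them were 0.390 and 0.287 in ES and, in EB, 0.430 and 0.166, against 0.413, 0.323, 0.447 and 0.189 in the middle region. Proximal and outer regions lay within the range of the 22 regions in 4C signal, input and ratio on all 4 arrays.

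Between the states, the ratio of each region differed by less than the spread between replicates. The proximal region differed by -0.0080 (95% confidence interval -0.254 to 0.238), the middle by -0.046 (-0.321 to 0.228) and the outer by 0.014 (-0.182 to 0.211), each with a limma adjusted p of 0.996. Of the 123 regions, 0 passed, and 0 had an unadjusted p under 0.05 in either direction. Within the replicate 1 batch EB minus ES was -0.111 in the proximal and 0.034 in the middle region, and within the replicate 2 batch 0.095 and -0.126, so that both regions had opposite signs in the 2 batches. In the outer region the batches gave -0.017 and 0.046.

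Against the array median the regions did pass in ES. The proximal region was below it and the middle above it in ES (limma adjusted p = 0.0365 for each), and in EB neither passed (limma adjusted p = 0.0548 and 0.0576). With the replicate as a block in the fit, both passed in EB as well (limma adjusted p = 4.32e-05 and 0.000145). The block takes the difference shared by the replicates out of the spread, so these p-values do not measure it. How many of all regions passed under the block was not computed. The outer region passed in neither state (0.145 and 0.212). The ratio of a region to the array median is no rare event on this array: 33.3% of the 123 regions were called above and 24.4% below in ES, and 0.813% and 8.94% in EB. Both ES calls were lost without ES replicate 1 (limma adjusted p = 0.365 for each) or ES replicate 2 (0.214 and 0.201). In EB, the proximal and middle ratios were -0.370 and 0.359 without EB replicate 2 (limma adjusted p = 0.000198 and 0.000291) and -0.172 and 0.133 without EB replicate 1 (0.191 and 0.300). A state left with 1 array is assumed to vary like the other state, whose 2 arrays alone give the spread, so that the values without EB replicate 2 show no more than that the remaining array was far from 0 on the scale of the ES arrays. The difference between the states in the same regions did not pass, as given above.

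Along the regions, the same held on a finer scale. The 586 windows of 10 kb comprised 112 in the proximal, 388 in the middle and 86 in the outer region. Between ES and EB, limma called 0 of them higher and 0 lower in EB in 4C signal, where percent_called over all 3785 windows of the array was 0.211 in each direction. At an unadjusted p under 0.05, 7 were higher and 5 lower in EB (1.43% and 2.62% of all windows). In log ratio 0 were called, against 0.264% of all windows higher and 0.159% lower, and 0 higher and 2 lower had an unadjusted p under 0.05 (0.449% and 1.66% of all windows). Both EB arrays lay above both ES arrays in 4C signal in 81 windows (13.8%, against 14.4% of all windows) and below in 64 (10.9%, against 12.8%). In log ratio the counts were 25 (4.27%, against 10.7%) and 45 (7.68%, against 8.48%). In simulated data each window took its spread at random from all windows of the array, with the largest spreads capped. Noise was drawn for each array on its own, without the shared scan batch. There, 98% of windows shifted by 0.5 log2 units in 4C signal were called. In log ratio 10% of those shifted by 0.5 and 72% of those shifted by 1 were called. These shares belong to the simulated setting and were not measured in the windows of these 3 regions.

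The windows with the largest EB minus ES difference in 4C signal were small in size and none passed. In the middle region the window from 54230001 to 54240000 (18 probes) had -0.060 and -0.238 in ES and, in EB, 0.054 and 0.019, a difference of 0.185 ± 0.063 (SE; limma adjusted p = 0.999). The next, from 56090001 to 56100000, differed by 0.122. The largest differences in the other direction there were -0.110 from 53270001 to 53280000 and -0.098 from 56370001 to 56380000. The last of these had the smallest adjusted p of all 586 windows (limma adjusted p = 0.575), with 0.049 and 0.042 in ES and, in EB, -0.058 and -0.047. In the proximal region the extremes were 0.120 (6520001 to 6530000) and 0.081 (6250001 to 6260000), and -0.118 (5450001 to 5460000) and -0.070 (6450001 to 6460000). In the outer region they were 0.062 (122860001 to 122870000) and 0.060 (122340001 to 122350000), and -0.055 (122630001 to 122640000) and -0.038 (122820001 to 122830000). Outside such extremes the windows lay close together, with a median difference of 0.0024 over the 586.

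The windows of the 3 regions lacked the tall 4C signal of some distal windows. The highest value of any window on any array was 0.340, on ES replicate 1, in a proximal window with 6 probes (5820001 to 5830000). The same window had -0.085 on ES replicate 2 and 0.025 and 0.155 in EB, so its replicates did not share the height. The second proximal window, 5450001 to 5460000, had 0.091 and 0.181 in ES and, in EB, 0.046 and -0.0085. In the middle region the highest means were 0.082 (56480001 to 56490000) and 0.078 (56490001 to 56500000), 2 neighbours, each at 0.128 or above on both replicate 2 arrays and at 0.060 or below on both replicate 1 arrays. In the outer region they were 0.094 (122510001 to 122520000) and 0.077 (122640001 to 122650000), of which the first also was highest on the replicate 2 arrays, at 0.150 and 0.179. In the distal region 21 of 217 windows exceeded 0.340 on some array, with a highest value of 5.53, while its median window was at 0.045 (mean over the arrays), below the highest means named here. Over the whole array 65 of 3785 windows exceeded 0.340, with a highest value of 6.88, so that such windows were not all distal.

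The pattern of 4C signal across these windows was shared in part between arrays. Over the 586 windows Pearson's r was 0.162 for the ES pair and 0.484 for the EB pair of arrays, and 0.282 within replicate 1 and 0.606 within replicate 2. In the distal region the correlation between replicates of a state was 0.920 and 0.988 over 217 windows. By rank the contrast held for ES and not for EB: Spearman's rho was 0.242 (ES pair) and 0.457 (EB pair) in the 3 regions, and 0.673 and 0.368 in the distal region. The input channel, by contrast, correlated at 0.947 in the ES pair and 0.956 in the EB pair over the 586 windows. Windows share their probes on every array, and the correlations are a description.

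In log ratio, many windows departed from the array median. In the middle region 210 of 388 windows (54.1%) were above it in ES and 180 in EB by limma, and 19 and 17 below. In the proximal region 38 of 112 (33.9%) were below in ES and 33 in EB, and 9 and 7 above. In the outer region 20 of 86 were below in ES and 15 in EB, and 8 and 5 above. Over the whole array, percent_called was 22.2 above and 22.3 below in ES, and 17.0 and 17.4 in EB. The counts changed when 1 array was left out. A state left with 1 array takes its spread from the other state alone, so a changed count need not mean changed values. Over the 3 regions, the 227 windows above in ES became 35 without ES replicate 1 and 107 without ES replicate 2, and the 192 in EB became 0 without EB replicate 1 and 219 without EB replicate 2. The 77 below in ES became 33 and 38, and the 65 in EB became 7 and 81, in the same order. After loess, which takes out most ratio differences that go with the input, 0 windows of the 3 regions were above in ES and 1 was below. In EB the counts were 0 and 0. The highest ratios were at low input: 1.14, 1.01, 1.33 and 0.634 from 56360001 to 56370000 (ES 1, ES 2, EB 1, EB 2), where the input was -1.10, -1.14, -1.38 and -0.807 and the 4C signal between -0.073 and 0.0003. The next window of the middle region by ratio, 56520001 to 56530000, had a mean of 0.956. In the proximal region the means were 0.690 (5700001 to 5710000) and 0.607 (5530001 to 5540000), and in the outer region 0.669 (122880001 to 122890000) and 0.510 (122680001 to 122690000).

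Bright input marked the other extreme. A window of the middle region from 53670001 to 53680000 (32 probes) had an input of 4.99, 4.72, 5.51 and 3.45 log2 units over the array median, the highest of all 586 windows by the mean over arrays (4.67). On ES 1 another window of the region was higher, at 5.13. The window from 53670001 to 53680000 had a 4C signal of 0.064, 0.014, 0.151 and 0.031, and a log ratio of -4.93, -4.78, -5.31 and -3.59. It was chosen after its values were seen. In the proximal region the last 300 kb stood apart from the rest. In the bin from 1000 to 1100 kb after its start, the median input was 0.944 and 1.19 in ES and, in EB, 1.43 and 0.820, and the log ratio -0.914 and -1.24 in ES and, in EB, -1.40 and -0.869. From 900 to 1000 kb the ratio was -0.488, -0.606, -0.885 and -0.417, and from 1100 to 1200 kb -0.818, -1.06, -1.35 and -0.774. The 4C signal of these bins lay between -0.040 and 0.026 on all arrays. In the middle region the lowest bin input, a mean of -0.752, was from 2500 to 2600 kb, which also had the highest bin ratio of the region, 0.662. In the outer region the bin ratio ran from -0.328 in the first 100 kb to 0.146 from 400 to 500 kb, with the input at 0.363 and -0.173. Mean 4C signal over the arrays ran from -0.049 to 0.036 over all 62 bins.

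**Figure D2:**
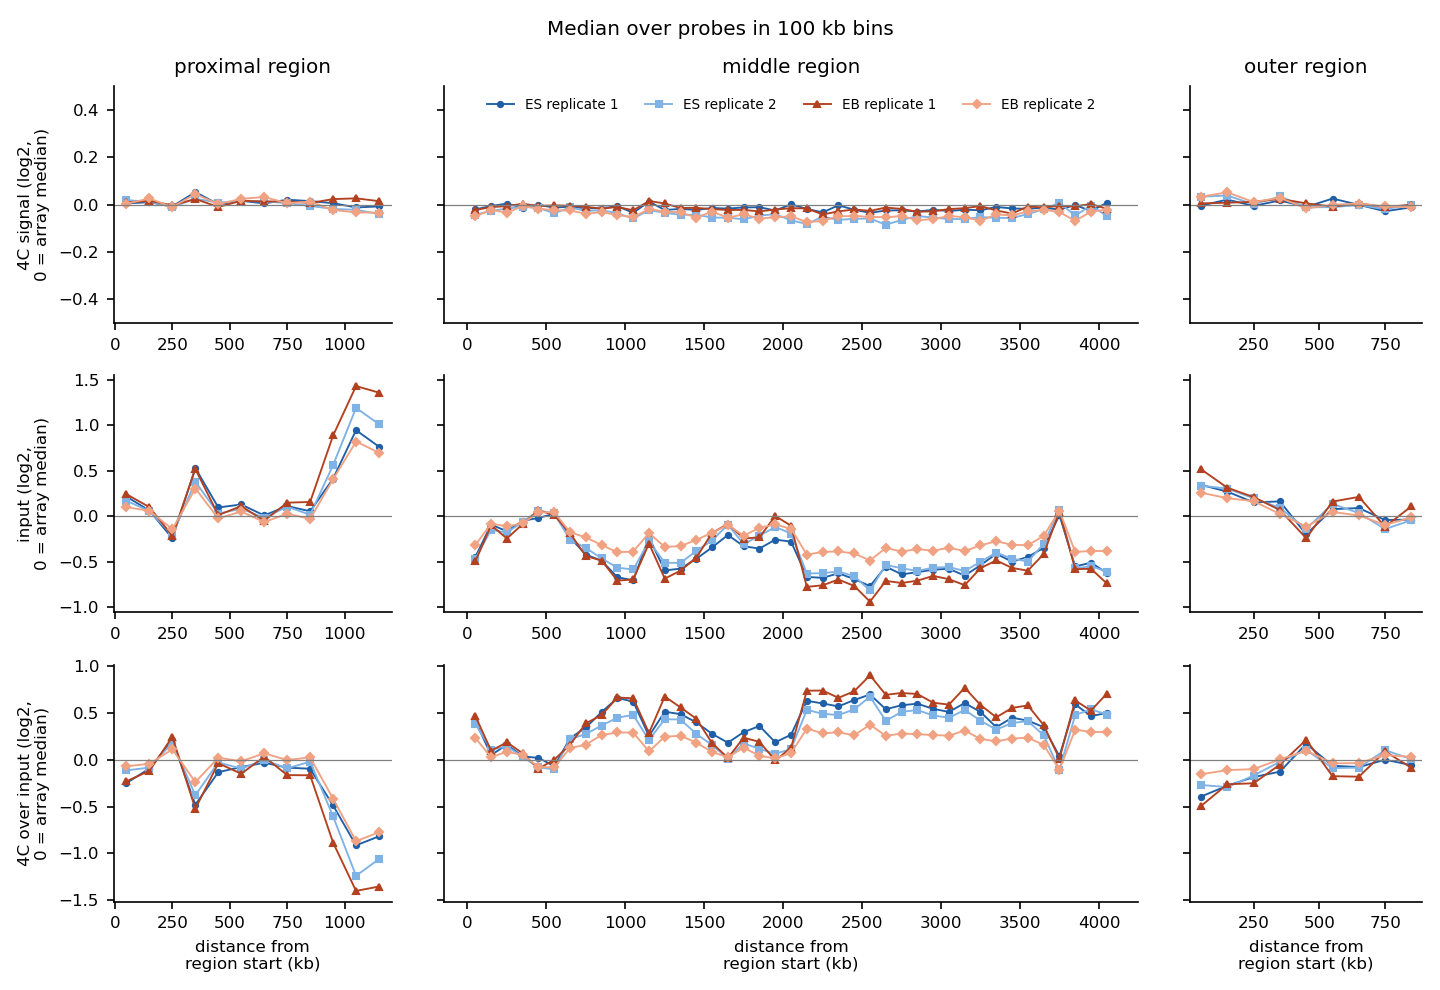
Median 4C signal, input and 4C over input (log2, array median at 0) over the probes of 100 kb bins along the proximal, middle and outer regions, against the distance from the start of each region in kb; each line is 1 of the 4 arrays. The 4C lines stay near 0 throughout, and the input and ratio lines mirror each other, most clearly in the last 300 kb of the proximal region.

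Single probes with raised 4C signal were then counted. A probe was called 4C-positive on an array at 2-fold (1 log2 unit) or more over the array's median, a rule taken from an earlier description of these data. In the proximal region 90 and 130 probes were positive on the ES arrays and, on the EB arrays, 66 and 153, or 1.03% and 1.49% in ES and, in EB, 0.755% and 1.75%. The middle region had 228 and 204 in ES and, in EB, 101 and 230, or 0.715% and 0.639% in ES and, in EB, 0.317% and 0.721%. The outer region had 61 and 118 in ES and, in EB, 42 and 135, or 0.725% and 1.40% in ES and, in EB, 0.499% and 1.61%. Over the 3 regions the shares were 0.773% and 0.922% in ES and, in EB, 0.426% and 1.06%, against a percent_called of 1.54, 2.1, 0.574 and 1.52 over all tiling probes. ES and EB overlapped in each region (EB minus ES -0.106 percentage points over the 3; exact permutation test, two-sided, p = 1). With 2 arrays against 2 the exact test cannot go below p = 0.333. Within replicate 1 EB was lower than ES by 0.347 points, and within replicate 2 higher by 0.135.

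These shares were in the range of the 22 large regions of other chromosomes, with exceptions at both ends. The proximal region had a higher share than all 22 on EB replicate 1 (their highest was 0.743%), and the middle region a lower share than all 22 on EB replicate 2 (their lowest was 0.771%). The middle region was low on each array, with 18, 21, 20 and 22 of the 22 regions above it. The distal region had 8.87% and 11.8% in ES and, in EB, 1.28% and 2.90%. Its ES arrays were both above its EB arrays, a pattern that the 3 regions did not show.

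**Figure D3:**
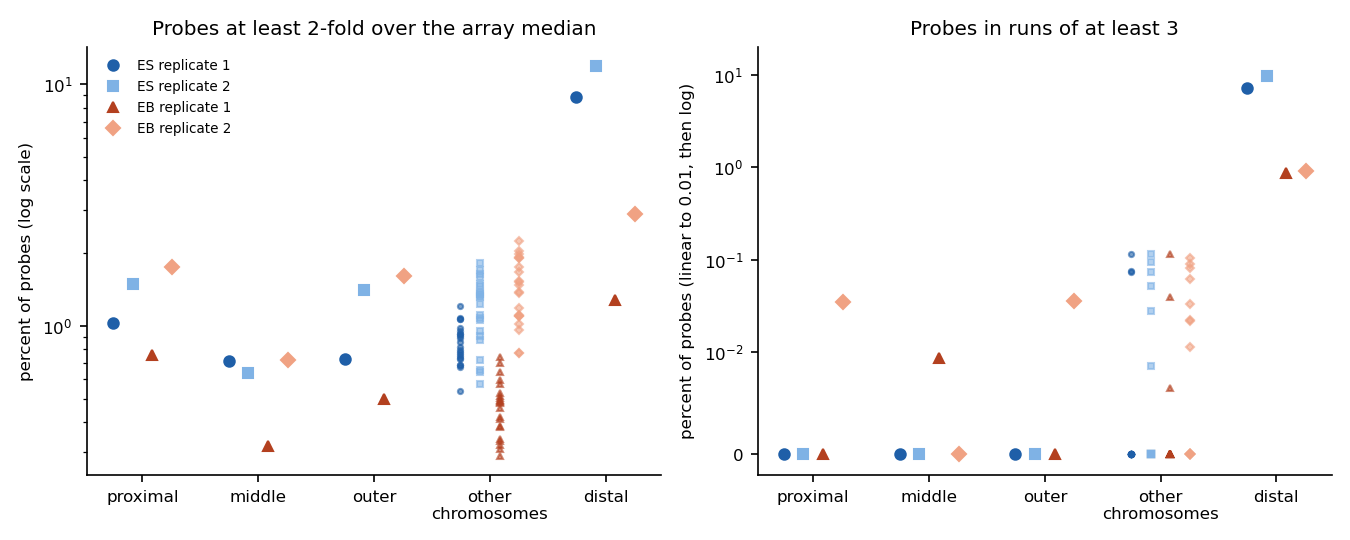
Share of 4C-positive probes (left, log scale) and share of probes in runs of 3 or more positive probes (right) per large tiled region on each array, in percent; small points are the 22 large regions of other chromosomes. The 3 regions lie at 0.317% to 1.75% positive, near the other chromosomes, with the proximal region above all 22 on EB replicate 1 and the middle region below all 22 on EB replicate 2, while the distal region reaches 8.87% and 11.8% on the ES arrays.

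Positive probes in the 3 regions stood alone. A run was 3 or more positive probes in a row, each starting at most 300 bp from the last. The 3 regions held 0 probes in runs on either ES array, 3 on EB replicate 1 and 6 on EB replicate 2, or 0%, 0%, 0.0061% and 0.0122%. EB minus ES was 0.0092 percentage points (exact permutation test, two-sided, p = 0.333, the smallest that 2 against 2 allow). In the large regions of other chromosomes percent_called was 0.0142, 0.0213, 0.00672 and 0.0187, and over all 26 large regions, the distal one included, 0.576, 0.774, 0.0733 and 0.0872. In the distal region the shares were 7.20% and 9.66% in ES and, in EB, 0.856% and 0.905%. In no stretch of the 3 regions were 3 neighbouring probes each positive on at least 2 arrays.

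The 3 runs each had 3 probes, on a single array. From 6551372 to 6551476 in the proximal region the mean 4C signal was 0.220 and 0.647 in ES and, in EB, 1.32 and 1.49, with an input of 4.37, 3.39, 4.21 and 2.79. This run reached the rule on EB replicate 2 and missed it on EB replicate 1 by 1 probe, which stood at 0.888. From 53680581 to 53680761 in the middle region the signal was 0.716 and 1.51 in ES and, in EB, 1.80 and 1.56, with an input of 5.01, 4.56, 5.55 and 3.79. It lies in the window next to the one with the brightest input given above, and met the rule on EB replicate 1. From 122663758 to 122663862 in the outer region the signal was 0.225 and 0.723 in ES and, in EB, 0.394 and 1.43, with an input of 3.35, 1.82, 3.01 and 1.75. All 3 runs thus lay on probes whose input was well over the array median on every array.

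Of the positive probes, 1.58% and 3.54% on the ES arrays and, on the EB arrays, 5.26% and 7.72% had a positive neighbour. In the distal region the shares were 87.0% and 85.1% in ES and, in EB, 69.5% and 34.3%. Between neighbouring probes of the 3 regions the 4C signal correlated at 0.013 and 0.075 in ES and, in EB, 0.049 and 0.075 (46445 pairs), against 0.828, 0.868, 0.819 and 0.648 in the distal region. In these regions a raised probe therefore said little about the probe beside it. Low values were not particular to them. In the large regions of other chromosomes 4.1%, 6.6%, 3.8% and 6.5% of positive probes had a positive neighbour (ES 1, ES 2, EB 1, EB 2). These shares were above those of the 3 regions in ES and below them in EB. The correlation between neighbouring probes there was 0.0199, 0.0823, 0.0452 and 0.0731 on the same arrays.

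Most positive probes were seen on a single array. Of the 1102 probes positive on at least 1 array, 813 (73.8%) were positive on exactly 1, 182 on exactly 2, 47 on 3 and 60 on all 4. Of the 182, 130 (71.4%) were positive on both replicate 2 arrays, 18 on both ES arrays and 13 on both EB arrays. A further 15 were on ES 2 and EB 1, 4 on both replicate 1 arrays and 2 on ES 1 and EB 2. Probes shared by the 2 arrays of 1 state alone were thus 17.0% of the 182. In the large regions of other chromosomes the replicate 2 pair made up 83.9% of 1481 such probes and the state pairs 9.32%. In the distal region the ES pair alone made up 88.2% of 2259.

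Over the whole array the background of these patterns was 0.438% of probes for the replicate 2 pair, 0.684% for the ES pair, 0.0873% for the EB pair, 0.0113% for the replicate 1 pair and 0.2% for all 4 arrays. In the 3 regions the shares were 0.265%, 0.037%, 0.027%, 0.0082% and 0.122%. In the large regions of other chromosomes they were 0.464%, 0.025%, 0.026%, 0.012% and 0.162%, in the same order. The whole-array share of the ES pair includes the distal region, where it was 7.39%. The replicate 2 pair made up 43 of 60 in the proximal, 45 of 75 in the middle and 42 of 47 in the outer region. The replicate 2 arrays shared a scan batch, whose part in this pattern was not tested.

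**Figure D4:**
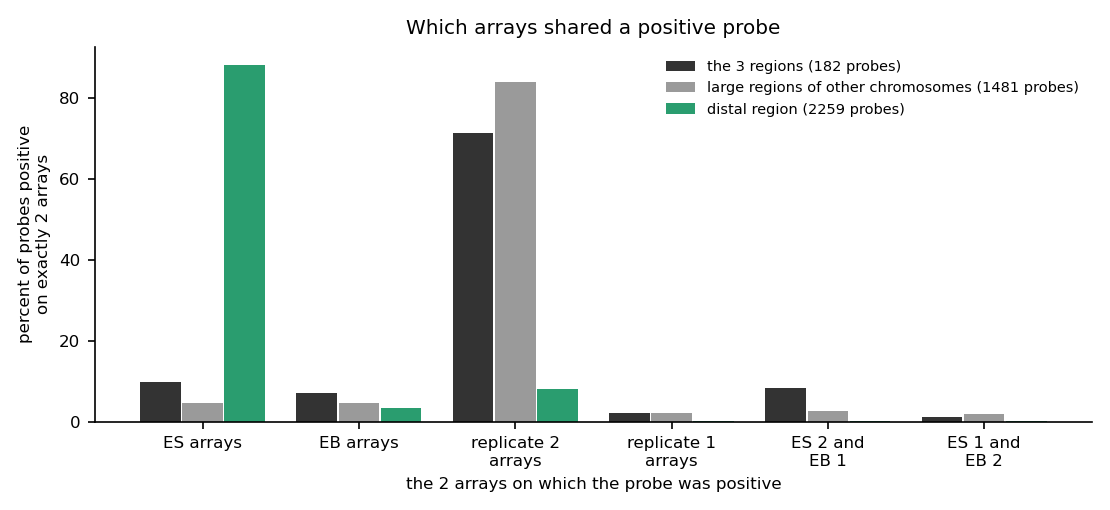
Probes positive on exactly 2 arrays, split by which 2 arrays these were, as a percent of such probes in the 3 regions (182), in the large regions of other chromosomes (1481) and in the distal region (2259). The replicate 2 pair leads in the 3 regions (71.4%) and on other chromosomes (83.9%), the ES pair in the distal region (88.2%).

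The clearest signal of 1 state in the regions was a pair of neighbouring probes in the middle region, at 52658748 and 52658800, 122 kb from its start and 102 bp long together. The 4C intensity of the first probe was 9805 and 57434 in ES, with 569 and 2091 in EB. The second had 10071 and 58304 in ES and, in EB, 471 and 1462. Relative to the array median, the mean log2 signal of the pair was 3.36 and 5.25 in ES, with -0.068 and 0.095 in EB. Both ES arrays were far above both EB arrays. Its input was near the median, at 0.096 and -0.370 in ES and, in EB, -0.360 and -0.159. The probe 52 bp before it had -0.264, -0.146, -0.197 and -0.183, and the probe 52 bp after it 0.043, -0.406, -0.138 and 0.122, so that the signal ended within 1 probe on either side. The pair was picked out by these values and has no test.

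Pairs of neighbours positive on at least 2 arrays numbered 5 in the 3 regions. Such stretches on both ES arrays alone numbered 2, or 4.08 per 100000 probes, against 1.87 in the large regions of other chromosomes (5 stretches) and 968 in the distal region (261). On both EB arrays alone there were 0 in the 3 regions, 3 on other chromosomes and 7 in the distal region. The second ES-only pair, at 6626319 and 6626371 in the proximal region, lay just over the 2-fold rule in ES, at 1.13 and 1.01, with 0.560 and 0.426 in EB. Its input was 4.88, 2.47, 4.67 and 1.80. The other 3 pairs had an input of at least 3.91 on every array.

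Of the 18 probes positive on both ES arrays alone, 5 were in the proximal, 12 in the middle and 1 in the outer region. Besides the pair, the tallest were at 52828848 (4.00 and 2.43 in ES, 0.353 and 0.341 in EB), 52765036 (1.57 and 3.90 in ES, 0.749 and 0.734 in EB) and 53617768 (4.00 and 1.64 in ES, 0.648 and 0.658 in EB). Of the 13 probes positive on both EB arrays alone, 6 were in the proximal, 5 in the middle and 2 in the outer region. The tallest were at 5956307 (6.51 and 2.07 in EB, 0.773 and 0.839 in ES), 54605215 (1.21 and 4.37 in EB, 0.462 and 0.753 in ES) and 54177404 (1.06 and 3.75 in EB, 0.745 and -0.076 in ES). Replicates of the state differed by more than 1 log2 unit at each of these 6 probes and at both probes of the ES pair in the middle region. An input under the median on all 4 arrays was seen at 2 of the 18 and 1 of the 13.

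The 60 probes positive on all 4 arrays had a high input as a group. Their median input (log2, array median at 0) was 6.55 and 5.17 in ES, with 6.28 and 4.35 in EB, and 0 of the 60 had an input under the median on all arrays. It was lower at some of them, such as the probe at 6065379 in the proximal region, at 2.63, 2.93, 2.47 and 2.89 (ES 1, ES 2, EB 1, EB 2). The tallest, at 5741714 in the proximal region, had a 4C signal of 5.83 and 5.43 in ES and, in EB, 3.98 and 3.98, with an input of 6.71, 5.73, 6.59 and 5.44. The proximal region held 24 of the 60, the middle 26 and the outer 10.

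The link to the input held for positive probes at large. Their median input was 1.26 and 2.46 in ES and, in EB, 4.84 and 1.67, against -0.28, -0.25, -0.27 and -0.18 for the other probes of the regions. Of the probes with the brightest 5% of input on their array, 5.92%, 12.3%, 6.99% and 10.7% were 4C-positive, and of the rest 0.555%, 0.448%, 0.130% and 0.672% (ES 1, ES 2, EB 1, EB 2). The large regions of other chromosomes were similar, so that the link was not particular to the 3 regions. Their shares on the same arrays were 6.21%, 12.4%, 6.81% and 11.3%, and of the rest 0.553%, 0.579%, 0.127% and 0.901%. The brightest 5% held 31.1% and 53.3% of the positive probes in ES and 70.8% and 38.8% in EB. On ES replicate 1 the other positive probes were spread over bins of middle input, at about 1% of each. The part of the input in the 4C signal of these probes was not tested.

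**Figure D5:**
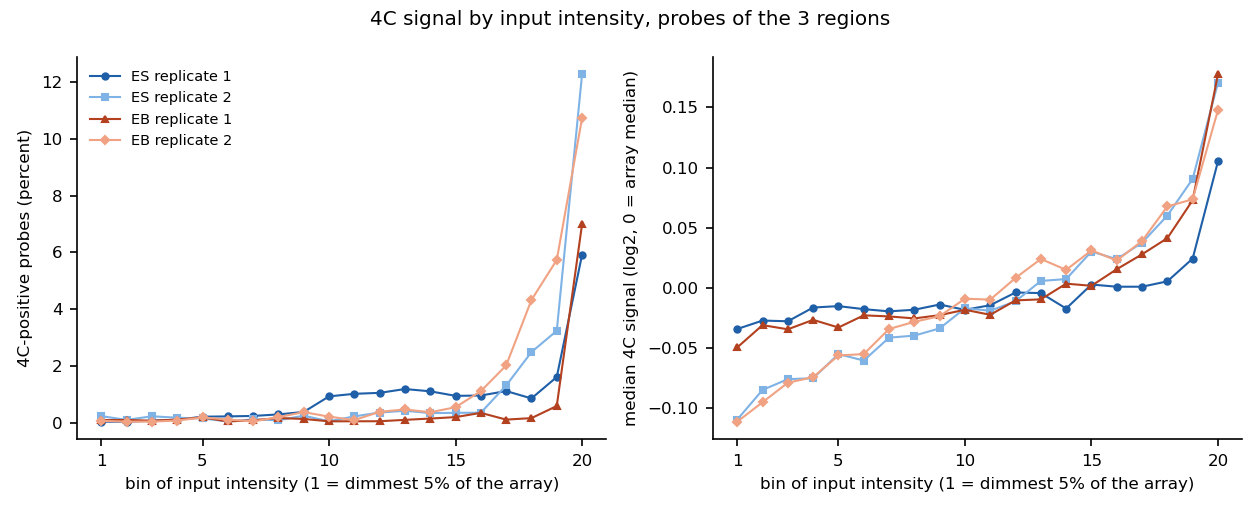
Share of 4C-positive probes in percent (left) and median 4C signal in log2 units (right) among the probes of the 3 regions, by bin of input intensity, where each of the 20 bins holds 5% of the array's tiling probes; each line is 1 array. In the brightest bin 5.92% to 12.3% of the probes were positive, and the median 4C signal reached 0.105 to 0.177.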

How the data were processed

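Each of the 4 arrays, 2 ES and 2 EB, gave a Cy5 (4C product) and a Cy3 (input DNA) value per 50-base probe. The deposited values are scanner intensity, extracted with NimbleScan 2.3.78 (replicate 1) and 2.3.18 (replicate 2) per the file headers; no source used here names a further step. No dye was swapped. The 1193 random controls were left out of the tests.

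Log2 of Cy5 and log2(Cy5/Cy3) were centred on each array's tiling median, with no background correction. Each 10 kb window holding 5 probes or more gave its median, and a region the mean of its windows. Tests used limma 3.58.1 in R 4.3.3 (2 group means fitted over the 4 arrays, two-sided, Benjamini-Hochberg over all 3785 windows or 123 regions, threshold 0.05). Single values were tested by exact permutation. Percent_called is the percent of all features tested that pass the same rule. Windows named are, per region, the 2 with the highest ratio, the 2 with the highest 4C signal and the 2 with the largest state difference in each direction. The members, rules and lists were chosen with earlier results of these data known. Alternatives are given in the closing section.

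Arrays of the same replicate number shared a scan day and count as paired: over the 586 windows, the deviations of ES and EB replicate 1 from their groups' means correlated at 0.325 (log ratio) and 0.207 (4C signal). Over the 123 regions the same correlations were higher, at 0.755 and 0.398. The main limma fits did not use this pairing, and the fits with the replicate as a block did. Of 3785 simulated windows, 50 were shifted at each size tried. Among the windows that were not shifted, the test made 6 false calls in each measure. Tables were handled with Python 3.11.15 and pandas 2.3.3, and plots drawn with matplotlib 3.10.9.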

Additional observations from a re-analysis of the deposited data

How the results depend on the processing

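The number of arrays, 2 per state, and a 4C channel near background limit every value. The regions' EB minus ES differences passed under none of the settings run. In log ratio the proximal difference turned to 0.011 under loess and 0.014 under normexp, and without 1 array the differences ranged from -0.107 to 0.091 (proximal), -0.160 to 0.067 (middle) and -0.040 to 0.069 (outer). In 4C signal the middle difference turned to -0.0057 under normexp and -0.00036 under quantile normalization, and without 1 array the ranges were -0.0013 to 0.010 (proximal), -0.013 to 0.014 (middle) and 0.00037 to 0.0099 (outer). Between regions, the middle minus outer ratio became -0.0080 under loess, and the outer minus proximal 4C signal ranged from -0.0024 to 0.0046 without 1 array. Which cause lies behind a turned sign was not tested.

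Against the array median, loess, which takes out most ratio differences that go with the input, gave -0.0016 (middle, ES), -0.0036 (middle, EB) and 0.012 (outer, EB). The proximal ES call was lost under loess (-0.027), with the median over probes (-0.183) and without the dimmest 20% of input (-0.190). EB calls appeared under normexp (-0.304 and 0.360, proximal and middle), quantile normalization (-0.270 and 0.247) and, for the middle region, the median over probes (0.318). With the replicate block (here the scan batch) EB was called in both (-0.271 and 0.246), in a fit whose p-values leave out the spread shared by the replicates. The block left 0 windows of the regions called between the states. Against the array median it gave 280 and 251 of their 586 windows above (ES, EB) and 100 and 97 below. The share of all windows of the array above or below under the block was not computed, so these counts have no background. Between the states, the block gave 51 windows of the whole array in ratio and 6 in 4C signal, against 16 each without it. Without 1 array, the proximal values ranged from -0.267 to -0.258 (ES) and -0.370 to -0.172 (EB), and the middle from 0.259 to 0.326 and 0.133 to 0.359. Of all 123 regions 0 to 6 were then called between states in ratio.

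Windows above the array median (192 EB, 227 ES) became 97 and 128 in 20 kb windows, 347 and 411 in 5 kb windows and 0 and 0 under loess, and EB 123 without dim input. Larger windows are fewer and smaller ones more numerous, so counts at other window sizes are out of another total. Shares at those sizes were not computed. Windows below (65 EB, 77 ES) became 29 and 39, 151 and 169, and 0 and 1, and 181 and 190 with the mean over probes. Without 1 array they ranged from 0 to 219 and 35 to 254 above, and 7 to 81 and 33 to 92 below. In 4C signal between the states, leaving out an array gave a call in the regions only without ES replicate 1, where ES is left with 1 array. Calls over the whole array rose in that fit as well.

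Positive probes (0.847% ES, 0.741% EB) became 8.61% and 8.75% under normexp, 2.70% and 2.27% at 1.5-fold, 0.250% and 0.146% at 4-fold, and 0.501% in ES without the brightest input. Probes in runs (ES, then EB) became 0.921% and 1.92% (proximal), 0.196% and 0.411% (middle) and 0.815% and 1.76% (outer) under normexp; 0.120% and 0.303%, 0.011% and 0.028%, and 0.113% and 0.113% at 1.5-fold; and 0.046% and 0.143%, 0.013% and 0.024%, and 0.036% and 0.065% in runs of at least 2. Without 1 array the EB shares ranged from 0 to 0.034%, 0 to 0.0094% and 0 to 0.036%.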
